A study of Mus musculus with 9 samples.

Results

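The Mir290 to Mir295 microRNA cluster lies on mouse chromosome 7. Its neighbourhood was taken as every listed pair of bins with at least 1 bin overlapping the stretch from 3.18 to 3.29 Mb of that chromosome (build mm10). This gave 97 of 36274 pairs in the untreated H3K27ac list and 92 of 28210 in the H3K27ac list after IAA. It gave 19 of 49630 CTCF pairs and 12 of 23630 RAD21 pairs, or 220 of 137744 pairs in all. The choice of pairs used position and no measured contact count.

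The cells were E14 mouse embryonic stem cells with the genotype CTCF AID, in which CTCF carries an auxin-inducible degron tag. All 9 libraries carried that genotype and were grown without serum, with leukemia inhibitory factor, PD0325901 and CHIR99021. H3K27ac was measured in 2 untreated libraries and in 2 libraries after 12 h of IAA, an auxin that triggers degradation of the tagged protein. CTCF (2 libraries) and RAD21 (3 libraries) were measured without IAA. Whether the line is 1 clone is not given in the sources used here, and the CTCF protein level was not analysed here. MNase HiChIP was the assay: chromatin is cut with micrococcal nuclease, DNA ends that lie close together in the nucleus are ligated, and the ligated DNA is enriched with an antibody. The number of ligated read pairs that join 2 bins is the contact count of that pair. All libraries of a group refer to the same deposited list, which leaves no spread between replicates to report. Unless stated otherwise, intervals are 95% exact binomial (Clopper-Pearson) intervals. Those of contact sums cover the counting error alone, those of shares of pairs treat pairs as separate draws although many share a bin, and PCR copies of a molecule were not told apart by identifiers.

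As background, the cluster encodes the most abundant microRNAs of mouse embryonic stem cells, which favour fast cell cycling and oppose differentiation. A long stretch of active enhancers, marked by H3K27ac, lies just upstream of it. CTCF is a DNA-binding protein that halts the cohesin ring, of which RAD21 is a subunit, and pairs of CTCF sites thereby form the ends of loops. A loop that holds a gene with its enhancers and that limits contact with genes outside is called an insulated neighbourhood. The design addresses which H3K27ac contacts change when CTCF is degraded.

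The annotation placed 9 microRNA genes in the cluster, from Mir290a at chr7:3218626-3218708 to Mir295 at chr7:3220773-3220841. RefSeq (GRCm38.p6) held 17 mature sequences for them, of which 6 carried AAGUGC within their first 8 bases. Over all 1738 mature mouse entries, 18 (1.04%) did. They are the products of the cluster, and 5 of the 6 are shown with the seed, bases 2 to 8, in capitals.
mmu-miR-291a-3p: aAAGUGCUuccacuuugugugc
mmu-miR-294-3p: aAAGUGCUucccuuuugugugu
mmu-miR-295-3p: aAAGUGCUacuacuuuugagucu
mmu-miR-291b-3p: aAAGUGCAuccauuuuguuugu
mmu-miR-290a-3p: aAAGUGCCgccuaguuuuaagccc

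The first 3 share the seed AAGUGCU. In the RefSeq entries used here, 2 other mature mouse sequences also have it, mmu-miR-302b-3p and mmu-miR-302d-3p of the Mir302 cluster. A microRNA without an entry there was not counted. The RefSeq entries used here held none for miR-292a-3p, so the counts of 17 and 6 leave it out. Mir290a, Mir290b, Mir291a, Mir292, Mir292b and Mir291b fall in the 2 kb bin chr7:3218001-3220000, and Mir293, Mir294 and Mir295 in the next bin, chr7:3220001-3222000. These are called the cluster bins, and other bins are named by their first base. Nlrp12, which encodes a sensor protein of the innate immune system, is annotated on the minus strand at chr7:3218784-3249613, so its 3′ part overlaps the cluster bins.

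CTCF and cohesin pairs surrounded the cluster at close range. Of the 19 CTCF pairs, 8 had 1 end on each side of the microRNA genes, and 3 of the 12 RAD21 pairs did. The CTCF pair with the most contacts among them joined chr7:3199001-3200000, upstream of most of the H3K27ac bins and in no gene, with chr7:3222001-3223000, in an untranslated part of Nlrp12 just past Mir295. It spanned 23 kb and had 29 CTCF contacts, where the authors' model predicted 7.05 (deposited q = 6.29e-08). The same 2 bins formed the surrounding RAD21 pair with the most contacts, 15 where 3.31 were predicted (deposited q = 0.000192). This pair is called the core loop. The narrowest surrounding CTCF pair ran from 3206001 to 3221001 with 10 contacts. The widest ran from 3184001 to 3222001 over 38 kb with 19 contacts.

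Left of the core loop, several CTCF bins took part. The bins 3194001 and 3199001, 5 kb apart, had 48 CTCF contacts where 23.2 were predicted, the most of any CTCF pair here. They had 18 RAD21 contacts, so this short pair stood in both lists. The bin 3194001 also paired across the cluster with 3221001 (17 CTCF contacts) and with 3222001 (19 CTCF contacts). From 3199001 a pair to 3221001 had 20 CTCF and 14 RAD21 contacts, next to the core loop.

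The right-hand end of the core loop was an end of loops in both directions. In the CTCF list the bin 3222001 had 3 pairs to the left and 5 to the right. The farthest went 155 kb to 3377001, beyond Cacng7, with 27 CTCF contacts where 3.20 were predicted, 8.43 times the prediction. The same pair had 14 RAD21 contacts where 2.31 were predicted.

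RAD21 pairs without a listed CTCF pair filled the enhancer stretch. The bin 3201001 had 26 RAD21 contacts with 3206001, 15 with 3212001 and 17 with 3217001, next to the cluster. The bin 3206001 had 12 RAD21 contacts with 3212001 and 13 with 3217001. These 5 pairs lay inside the core loop, and none of them was in the CTCF list. In all, 6 pairs were in both lists. That is 31.6% of the CTCF pairs (12.6 to 56.6%) against 34.4% over the whole CTCF list, and 6 of 12 RAD21 pairs (21.1 to 78.9%) against 72.2% over the whole RAD21 list. Both intervals hold the share of the whole list. The median ratio of contacts to predicted contacts was 3.58 for CTCF pairs here and 4.74 over the CTCF list.

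**Figure D1:**
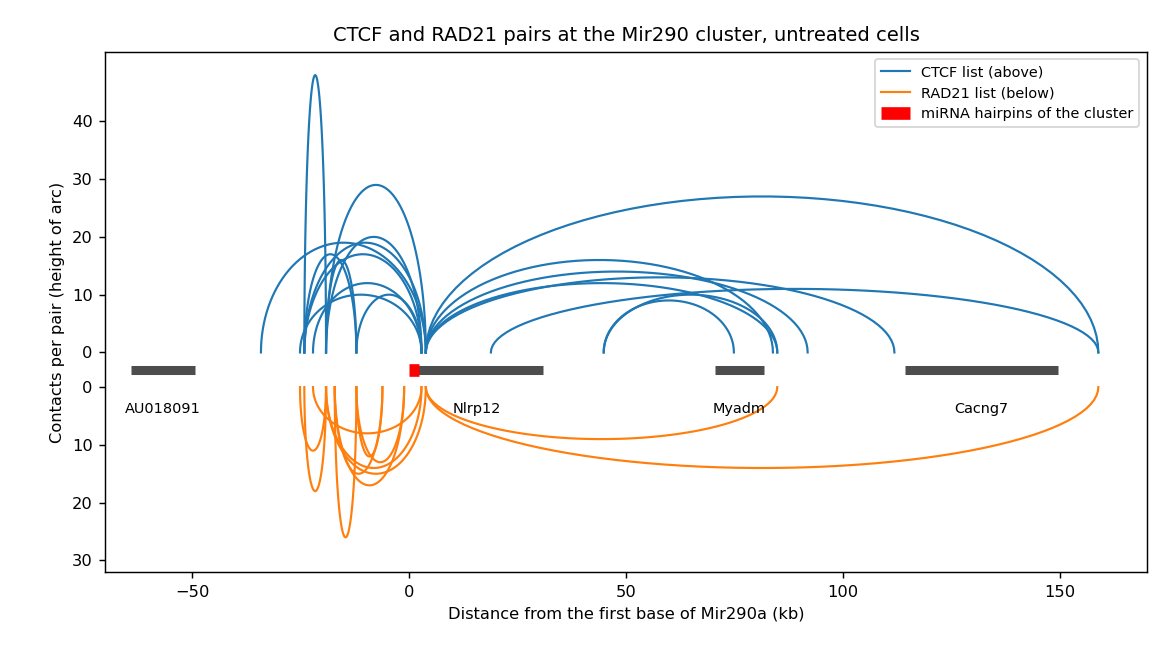
Each arc is a pair from the CTCF list (above) or the RAD21 list (below) in untreated cells. The x axis is the distance from the first base of Mir290a in kb, the height of an arc is its contact count, dark bars are AU018091, Nlrp12, Myadm and Cacng7, and the red bar is the microRNA cluster. Both lists have a pair that closes over the cluster (29 CTCF and 15 RAD21 contacts) and a pair that runs 155 kb to the right (27 and 14).

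The bins at the ends of CTCF pairs were searched for the CTCF motif core on both strands, allowing 1 mismatch. Of 16 CTCF bins here, 6 held a match (37.5%, 15.2 to 64.6%), against 41.7% of the 34038 bins of the whole list and 5.15% of those bins moved by 10 kb. The windows below belong to the ends of the surrounding loops and are shown because their strands differ between the left and the right end. Each is 30 bases of GRCm38, 5′ to 3′ on the strand of the match, with the match in capitals.
chr7:3184642-3184671, minus strand, left end of the widest loop: agaaccaaCCAGAAGGTGGCACtcacacac
chr7:3194114-3194143, minus strand: ctatggtgACAGCAGGGGGCGCacctctcc
chr7:3196040-3196069, minus strand: ctgaagcgACAGCAGAGGGCACacgtctgt
chr7:3199065-3199094, minus strand, left end of the core loop: ctgaagggACGGCAGGGGGCGCacctctcc
chr7:3222094-3222123, plus strand, right end of the core loop: tgacttggCCAGTAGATGGCAGtcttggtc

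The windows at 3194001 and 3199001 were identical at 25 of 30 bases, and those at 3196001 and 3199001 at 23. The window at the right end matched the core with 0 mismatches, and the others had 1. All 4 matches on the left lay on the minus strand and the match at 3222001 on the plus strand, so the motifs of the core loop pointed away from each other. Of 4 CTCF pairs here with a match on 1 strand at each end, 3 were divergent, all sharing the bin 3222001, and 1 was tandem. Of 14017 such pairs in the whole list, 2.43% were divergent, 66.7% convergent and 30.9% tandem. The count of 3 rests on 1 shared right end and on matches with a mismatch, and this comparison was added after the data were seen. A match is a description and no proof of binding.

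Before IAA, the neighbourhood was a dense web of H3K27ac contacts across the enhancer stretch and the cluster. The 97 pairs held 3498 contacts, from 8 to 184 per pair with a median of 25, against a median of 13 over the whole list. In 91 of them both bins were H3K27ac peaks, and the median span was 16 kb. The pairs with the most contacts joined enhancer bins to each other and to the cluster: 3206001 with 3212001 (184 contacts), 3200001 with 3206001 (158), 3200001 with 3212001 (156), 3212001 with the cluster bin 3218001 (130), and 3204001 with 3212001 (123). The bin 3200001 had 17 listed partners and 3212001 had 16. Only 1.41% of the bins in the untreated list had 15 or more partners, and the median was 1. The core loop held 44 H3K27ac pairs. Among 519 pairs that CTCF and RAD21 had in common and whose span was within a factor of 2, with at least 10 H3K27ac pairs, the median was 11 and the maximum 70.

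After IAA, the web was still listed. Of the 97 untreated pairs, 66 were called again at the same bins (68.0%, 57.8 to 77.1%), against 42.9% over the whole untreated list. Of the 92 IAA pairs, 66 were in the untreated list (71.7%, 61.4 to 80.6%), against 55.1%. The pairs here had more contacts than most, with a median of 31.5 untreated contacts in the 66 shared pairs against 18 in all shared pairs, and the part of contact number in the share called again was not tested. The 92 IAA pairs held 3039 contacts, 9 to 151 per pair with a median of 22. The 3 pairs with the most contacts were the same in both lists: after IAA, 3206001 with 3212001 had 151 contacts, 3200001 with 3206001 had 151, and 3200001 with 3212001 had 150.

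**Figure D2:**
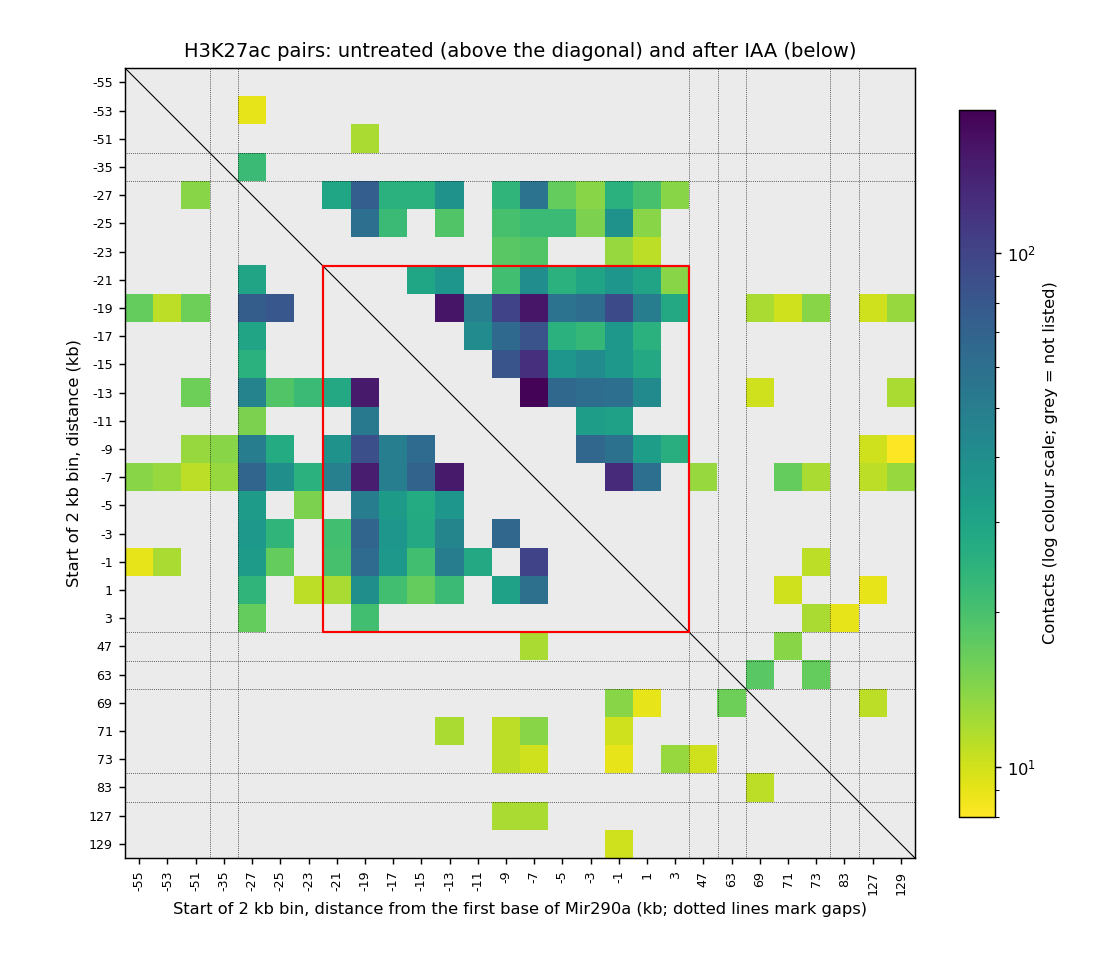
Each square is a listed H3K27ac pair of 2 kb bins, with untreated contacts above the diagonal and contacts after IAA below it, on a log colour scale. Axes give the start of each bin in kb from the first base of Mir290a, dotted lines mark gaps, grey means not listed, bins in only 1 listed pair are left out, and the red frame is the core loop. The dense block inside the frame is present on both sides, and the bins of AU018091, at the far left, have 2 pairs above the diagonal and 11 below it.

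Single pairs were compared with an exact two-sided binomial test on the 2 counts, scaled by the total over all shared pairs (IAA over untreated, 0.980). The Benjamini-Hochberg adjustment ran over all 15551 shared pairs. This test compares 2 pooled sets of libraries and not the conditions. At adjusted p under 0.05, 0 of the 66 shared pairs here differed, against 0.135% of all shared pairs (0.0965% higher and 0.0386% lower after IAA). The smallest adjusted p here was 0.0892, and at these contact numbers only large differences could pass. At unadjusted p under 0.05, 5 were higher and 8 lower after IAA, 13 in all, against 4.41% of all shared pairs (1.98% higher and 2.43% lower). Among the 36 pairs here with at least 30 untreated contacts, 8 were lower and 0 higher at that level, where 9.91% of such pairs in the list were lower and 2.89% higher, 12.8% together. That limit was chosen after the data were seen, and choosing pairs by their untreated count favours falls. The authors' model implies 1.17 times as many contacts in the IAA libraries. Scaled by that, which moves every log2 ratio down by 0.25, 2 pairs here passed adjusted p under 0.05, and the median log2 ratio of all pairs moves by the same amount.

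Contacts with both ends inside the core loop were on balance lower after IAA. Of 44 untreated pairs inside, 37 were called again (84.1%, 69.9 to 93.4%), against 42.9% over the whole untreated list. All 37 IAA pairs inside were in the untreated list and 0 were listed after IAA only. Over the whole IAA list, 55.1% were in the untreated list. The contacts of the pairs inside went from 2505 in 44 pairs to 1888 in 37. In the 37 shared pairs the sum went from 2280 to 1888, a log2 ratio of -0.24 (-0.33 to -0.15), and after the scaling 28 pairs were lower and 9 higher. The median of the 37 was -0.33, against 0.03 over all shared pairs. At comparable contact numbers, 60 or more in both lists together, the median was -0.29 for 26 pairs inside and -0.05 for all 2719 pairs, with 20 of 26 lower inside and 55.1% lower in all. Below that number, the median was -0.39 for 11 pairs inside and 0.03 for all 12832. These 2 classes were added after the data were seen.

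The lower counts were not uniform over the enhancer stretch. The pair of enhancer bins 3204001 and 3212001 had 123 contacts untreated and 69 after IAA, the pair with the smallest adjusted p here (log2 ratio -0.80, exact binomial adjusted p = 0.0892). Scaled by the authors' model its adjusted p was 0.00134. Over the 6 shared pairs of 3204001 inside the core loop, contacts went from 346 to 225, a log2 ratio of -0.59 (-0.84 to -0.35), and 6 of 6 were lower. The H3K27ac coverage of that bin went from 4926 to 5014, a log2 change of 0.03 where the median over all bins was 0.20. Those of 3206001 went from 607 to 483 (log2 ratio -0.30, -0.48 to -0.13), and the coverage of that bin went from 7634 to 6994, a log2 change of -0.13 where the 5th percentile over all bins was -0.06. The part of that coverage in its lower contacts was not tested. The inside pairs of 3200001 summed to 751 contacts untreated and 683 after IAA (log2 ratio -0.11, -0.26 to 0.04). Those of 3210001 summed to 367 and 336 (log2 ratio -0.10, -0.32 to 0.12). At 3208001 the sums were 79 and 81 (log2 ratio 0.07, -0.40 to 0.53). At 3202001 and at 3216001, 3 pairs were higher and 3 lower after the scaling. The intervals of 3200001, 3210001 and 3208001 include 0, as do those of 3198001, 3202001, 3214001, 3216001 and 3222001. Scaling by the authors' model, which moves every log2 ratio down by 0.25, gave these bins ratios from -0.18 (3208001) to -0.64 (3222001).

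The microRNA bins themselves had fewer contacts with the bins to their left inside the core loop. There the shared pairs of 3218001 went from 420 to 317 contacts (log2 ratio -0.38, -0.59 to -0.16) and those of 3220001 from 267 to 201 (log2 ratio -0.38, -0.65 to -0.11). The sums below also hold their pairs with bins left of the core, which went in both directions. The bin with Mir290a to Mir291b had 9 shared partners on its left, with 483 contacts untreated and 367 after IAA (log2 ratio -0.37, -0.57 to -0.17), 7 lower, 1 equal and 1 higher. Its strongest partner, 3212001, had 130 and then 100 contacts, and 3200001 had 93 and then 63. With 3198001 it had 36 and then 20, and with 3194001 it had 38 and then 17 (log2 ratio -1.13, exact binomial adjusted p = 0.626). With 3202001 it had 35 in both lists. Its pair with 3210001, 8 kb away, had 58 untreated contacts and was not listed after IAA, where an estimated 38 would have been needed for a call. The bin's H3K27ac coverage was 9657 untreated and 10202 after IAA. Its log2 change, 0.08, was under the median of 0.20 over all bins.

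The bin with Mir293 to Mir295 differed in the same direction, less evenly. Its 9 shared partners on the left had 298 contacts untreated and 236 after IAA (log2 ratio -0.31, -0.56 to -0.06). With 3198001 it had 30 and then 12 contacts, the most negative log2 ratio here (log2 ratio -1.29, exact binomial adjusted p = 0.679). With 3206001 it had 42 and then 22 (log2 ratio -0.90, exact binomial adjusted p = 0.898). With 3212001 it had 60 and 59, and with 3210001 it had 32 and 31. Its coverage was 3876 untreated and 4295 after IAA.

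**Figure D3:**
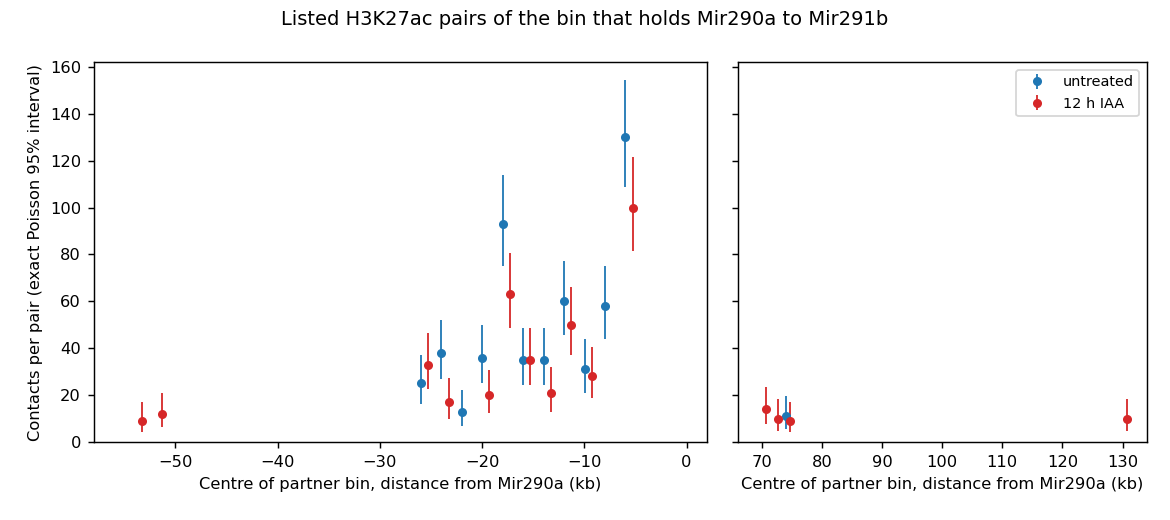
Contacts of the bin that holds Mir290a to Mir291b with each listed partner, untreated (blue) and after IAA (red), by the distance of the partner's centre from the first base of Mir290a in kb. Points are contact counts and bars are exact Poisson 95% intervals, which cover counting error only. The red point lies below the blue at 7 of the 9 shared partners on the left, and 2 red points without a blue one lie at the far left, in AU018091.

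Scaled by all shared pairs, contacts that crossed the left end of the core loop differed the other way. Across its right end the interval of the ratio included 0. In the 21 shared pairs across the left end the sum went from 578 to 724 (log2 ratio 0.35, 0.19 to 0.51), and in the 7 across the right end from 86 to 82 (log2 ratio -0.04, -0.49 to 0.41). Scaled by the authors' model, the log2 ratio was 0.10 across the left end, with 15 pairs higher and 6 lower, and -0.29 across the right end. Taking both ends together, pairs with 1 bin in the core loop and 1 outside numbered 46 untreated and 50 after IAA, with 893 and 1089 contacts. In the 28 shared ones the sum went from 664 to 806, a log2 ratio of 0.31 (0.16 to 0.46), 23 higher and 5 lower after the scaling. With contacts divided by bin coverage the ratio was 0.20, and inside the core loop it was -0.24. Leaving pairs were 51.1% of all pairs with a bin inside before IAA (40.3 to 61.8%) and 57.5% after it (46.4 to 68.0%), and these intervals overlap. Across 519 loops of similar span, the median leaving share was 62.3% untreated and 68.8% after IAA, and across all 4092 loops described next it was 20% and 27.6%. By contacts the leaving share was 26.3% and then 36.6%. It sums listed contacts only, so the 7 inside pairs not listed after IAA count as 0 although their contacts are unknown. It is therefore no estimate of a change. Of 4092 pairs that CTCF and RAD21 had in common with at least 10 H3K27ac pairs in each condition, 59.0% had a smaller rise of the leaving share than the core loop's 6.36 percentage points. Their median rise was 3.57 points, and the middle 90% ran from -10.9 to 28.1.

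The log2 ratio of the leaving pairs moved with the surrounding pair taken as the neighbourhood. With the widest pair, leaving pairs were 23.9% untreated and 29.2% after IAA. The log2 ratio of the shared leaving pairs was then 0.03 (8 pairs, -0.39 to 0.45). With the pair of highest contacts over prediction, it was -0.03 (9 pairs, -0.40 to 0.34). Both intervals hold 0 and also the core loop's 0.31, so these few pairs do not settle a direction. Scaled by the authors' model, the leaving pairs of the core loop had a log2 ratio of 0.06 (-0.09 to 0.21), an interval that holds 0. The pairs inside then had -0.49 (-0.58 to -0.40). Of the 28 shared leaving pairs, 20 joined the core with the bins 3192001, 3194001 and 3196001, which lie within the widest loop.

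Those bins, which are H3K27ac peaks in no gene, had more contacts in their shared pairs after IAA relative to the core. Within the widest loop, 26 pairs in each list had a bin left of the core, and 20 were shared. Contacts in the 20 went from 566 to 708, a log2 ratio of 0.35 (0.19 to 0.51). By counts, 16 were higher, 3 equal and 1 lower, and after the scaling 19 were higher. Scaled by the authors' model, the log2 ratio was 0.10, with 14 higher and 6 lower. The exception by counts was 3194001 with the cluster bin 3218001, given above. Over all listed pairs, 3194001 had 9 partners with 232 contacts untreated and 6 with 206 after IAA. Its pair with 3214001 had 22 untreated contacts and was not listed after IAA, where an estimated 14 would have been needed. The bin 3192001 had 393 and then 495 contacts over all listed pairs, and 3196001 had 61 and then 73. Subtracting the core's log2 ratio gives a difference of 0.60 (0.41 to 0.78, a normal approximation for counting error), which does not depend on the scaling. It ranged from 0.52 to 0.70 when any 1 bin was left out. This comparison was chosen after the data were seen. In both classes of contact number the 2 sides stayed apart, with medians of 0.37 (6 pairs) and 0.30 (14 pairs) on the left.

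The difference was clearest at 3192001, which had 14 partners in each list. Its pair with 3216001, next to the cluster, had 14 contacts untreated and 35 after IAA (log2 ratio 1.35, exact binomial adjusted p = 0.416). With 3210001 it had 24 and then 50 (log2 ratio 1.09, exact binomial adjusted p = 0.406). With 3214001 it had 17 and then 33 (log2 ratio 0.99, exact binomial adjusted p = 0.944). These are the 3 largest log2 ratios among the shared pairs here, and none passed the adjusted threshold. With the cluster bins it had 25 and then 33 contacts at 3218001, and 20 and then 24 at 3220001. With 3200001, 8 kb away, it had 74 and 75. Over its 12 shared pairs the sum went from 362 to 466 (log2 ratio 0.39, 0.19 to 0.60). Its H3K27ac coverage went from 2775 to 3654, a log2 change of 0.40, and that of 3194001 from 2589 to 3774, a change of 0.54. Over all bins the 95th percentile of that change was 0.52. Dividing contacts by bin coverage left a difference of 0.46 between the 2 sides, and the part of coverage in it was not tested further.

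**Figure D4:**
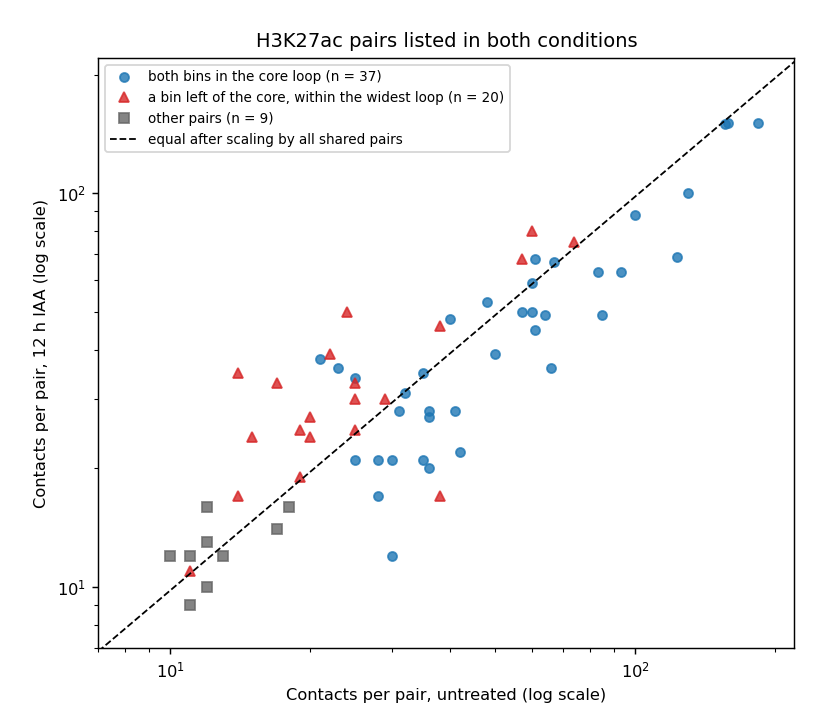
Contacts of the 66 H3K27ac pairs listed in both conditions, untreated on the x axis and after IAA on the y axis, both on log scales. Each point is a pair, and the dashed line marks equal contacts after scaling by all shared pairs. Of the 37 pairs with both bins in the core loop (blue), 28 lie below the line, and 19 of the 20 pairs with a bin left of the core (red) lie on or above it.

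Pairs that left even the widest loop went mostly to 3 genes, which were singled out after their values were seen. On the left they ended at AU018091, a protein-coding gene on the minus strand with its start bin at 3168001. The untreated list had 2 such pairs with 21 contacts, and the IAA list had 11 pairs with 146 contacts, 9 to 17 per pair. Of the 11 IAA pairs, 1 was in the untreated list (9.09%, 0.230 to 41.3%), against 55.1% over the whole IAA list. Of the 2 untreated pairs, 1 was called after IAA, against 42.9% over the whole untreated list. That shared pair, 3168001 with the enhancer bin 3200001, had 12 and then 16 contacts. Among pairs listed after IAA only, 3168001 had 16 contacts with 3206001, 14 with 3192001, 13 with 3210001 and 11 with 3212001. The bin 3164001, in the body of AU018091, had 17 contacts with 3200001, 14 with 3212001 and 9 with the cluster bin 3218001. The bin 3166001 had 13 contacts with 3212001, 12 with the cluster bin 3218001 and 11 with 3200001. AU018091 thus had more listed pairs with the enhancers and with the first cluster bin after IAA, and only 1 pair, 3166001 with 3192001 (9 contacts), was listed untreated and not after IAA.

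A pair that is not listed need not be at 0. The 10 pairs listed after IAA only held 130 contacts. In untreated cells each would have needed 9 to 10 contacts for a call, estimated from the IAA model's probabilities, so by that estimate they could together have held at most 81 without being listed. Of the 11 IAA pairs, 3 had an untreated pair within 1 bin at each end. The coverage of 3168001 went from 1623 to 2317 (log2 change 0.51) and that of 3166001 from 1009 to 1553 (0.62), near or above the 95th percentile of 0.52 over all bins. The part of coverage in these new pairs was not tested.

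On the right, most listed pairs went to Myadm, which encodes a membrane protein, and to Cacng7, a calcium channel subunit gene. Of the others, 3212001 with 3266001, in no gene, had 13 and then 12 contacts, and 3212001 with 3570001, also in no gene, had 11 after IAA only. Pairs with the 3 bins that hold Myadm start sites numbered 9 untreated with 108 contacts and 10 after IAA with 113, and 4 were shared, with 52 and 46 contacts. Of the 9 untreated pairs, 4 were called after IAA, where 42.9% of the whole untreated list were. Of the 10 IAA pairs, 4 were in the untreated list, where 55.1% of the whole IAA list were. The strongest Myadm pair, 3212001 with 3290001, had 17 and then 14. The first cluster bin was listed with all 3 Myadm bins after IAA, with 14, 10 and 9 contacts, and with 1 of them untreated, 3292001 with 11. The second cluster bin had 10 untreated contacts with 3290001 and 9 after IAA with 3288001. The enhancer bin 3200001 went the other way, listed with all 3 Myadm bins untreated (12, 10 and 14 contacts) and with 0 of them after IAA.

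Pairs with the body of Cacng7, at bins 3346001, 3348001 and 3366001, numbered 9 untreated with 96 contacts and 3 after IAA with 34. Of the 9, 2 were called again after IAA, where 42.9% of the whole untreated list were. The cluster bin 3220001 had 9 contacts with 3346001 in untreated cells only, and 3218001 had 10 with 3348001 after IAA only. The 7 pairs listed in untreated cells only held 75 contacts, and by the same kind of estimate they could have held at most 56 after IAA without being listed. The coverage of the 3 Cacng7 bins went from 5393 to 3988, from 2805 to 2124 and from 2289 to 1652, log2 changes of -0.44, -0.40 and -0.47, where the 5th percentile over all bins was -0.06. The part of that coverage in the missing pairs was not tested. Over all right-going pairs, 20 were listed untreated and 15 after IAA, and the 7 shared ones had 86 and 82 contacts (log2 ratio -0.04, -0.49 to 0.41). Of the 15, 14 had an untreated pair within 1 bin at each end.

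**Figure D5:**
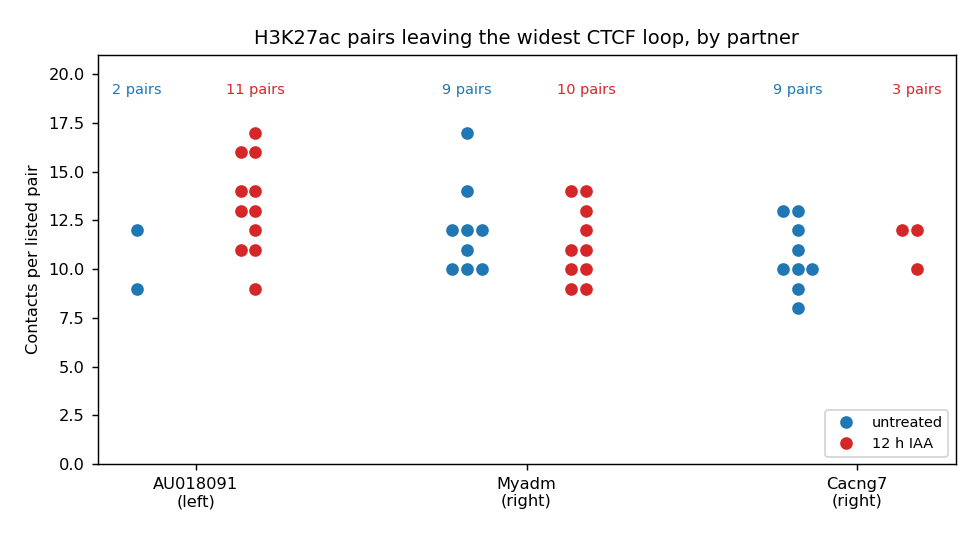
Contacts of each listed H3K27ac pair that leaves the widest CTCF loop, untreated (blue) and after IAA (red), by where its outer bin lies. Each point is a pair, and equal values are set side by side. Listed pairs went from 2 to 11 at AU018091, from 9 to 10 at Myadm and from 9 to 3 at Cacng7.

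Nlrp12 itself had no listed contact at its promoter. The bin with its start site, 3248001, was in 0 pairs of any of the 4 lists. Its gene body had a bin in 30 untreated H3K27ac pairs, 28 after IAA, 14 CTCF pairs and 5 RAD21 pairs, and the cluster bins at its 3′ end supply most of the H3K27ac ones. Of the protein-coding genes with a start site within 250 kb of the neighbourhood, AU018091 and Myadm had a listed H3K27ac pair at a start bin in each condition. Nlrp12, Cacng6, Cacng7, Cacng8 and Tarm1 had 0 in both.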

How the data were processed

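The members and lists were chosen with earlier results of these data known. All 4 deposited lists of called pairs (2 kb bins for H3K27ac, 1 kb for CTCF and RAD21) are pooled over 2 to 3 replicates. Per the file headers, each pair has a contact count and the coverage of each bin, both deposited as whole counts with no scaling. Further columns, per the file headers, hold a predicted contact signal, a probability as a fraction, a p-value and a q-value. Every deposited q-value is under 0.05. The submitters' processing notes name Trim Galore, BWA, MACS2, deepTools and mm10, while the caller of pairs and its settings are not given in the sources used here. A pair that is not listed was not called, so its contact number is unknown. The contacts in the authors' model number 12551236 for untreated H3K27ac, 14629323 after IAA, 2839756 for CTCF and 1517698 for RAD21. Low counts per pair (medians of 13 to 14 over the lists) limit single pairs.

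From these files, pairs were joined by identical bins with pandas 2.3.3. Shared pairs were tested with the exact binomial test in SciPy 1.17.1 (Benjamini-Hochberg over all shared pairs), which was tested on simulated data. A bin overlapping an end of the core loop counted as inside. Genes came from GENCODE M21. Pairs named are those with a cluster bin, the 5 with most contacts in each list and the 3 largest rises and falls, and pairs to the outside singled out afterwards. The closing section gives the effect of a stricter q limit, other windows, bin tolerances, scalings and surrounding pairs. Results at 1 gene are not reported here.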

Additional observations from a re-analysis of the deposited data

How the results depend on the processing

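No paired analysis was possible because the deposited lists are pooled over replicates, and for the same reason leaving out each replicate and a replicate block could not be run. Of the main results, 27 alternatives kept the value within its counting interval (or count within 1.5 times), 23 moved it and 1 reversed it; the cause was not tested. With both bins required in the window, 78.7% of untreated pairs were called again and 88.1% of IAA pairs were in the untreated list, and the leaving share was 38.9% untreated and 43.1% after IAA. At q of 0.01 or less, the shares called in the other list were 65.6% and 77.6% and the leaving shares 48.2% and 53.3%. With each bin free to differ by 1 bin, the shares called in the other list were 88.7% and 87.0%. Scaling by the authors' model gave log2 ratios of -0.35 for the 66 shared pairs here (-0.099 as reported), -0.49 inside and 0.059 leaving (-0.091 to 0.21). It put 60 pairs past the adjusted threshold over the list and 2 here. At adjusted p under 0.01, 12 pairs passed over the list. Counting unshared pairs too, the ratio inside was -0.38, which sets the 7 pairs not listed after IAA to 0 although their contacts are unknown, so it is no estimate of a change. With the widest surrounding CTCF pair (added after the data were seen), the ratios were -0.10 inside and 0.029 leaving and the leaving shares 23.9% and 29.2%. With the pair of highest contacts over prediction, they were -0.10 and -0.028, with 27.8% and 33.3%. The -0.028 is the value counted as reversed, on 9 shared pairs with an interval (-0.40 to 0.34) that includes 0. With the shortest pair, the leaving shares were 83.3% and 86.8%. In each of these, the leaving share was higher after IAA, with overlapping intervals. They reuse the same 2 lists and are no separate support. Over the 4092 loops the median leaving share was higher after IAA too (20% and 27.6%). With 0 mismatches, the motif share was 6.25%, against 12.6% over the whole CTCF list and 0.723% of the bins moved by 10 kb. Of the named pairs, 1 (3204001 with 3212001) passed the threshold under model scaling only (log2 ratio -1.06). A further 43 alternatives concerned named pairs or the difference between pairs left of the core and pairs inside it. They changed no call of a named pair or kept that difference, which has no call, within its counting interval.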

Other observations

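Other microRNA loci, listed as known from embryonic stem cells and with their expression not measured here, had few or no H3K27ac pairs at their hairpin bins. The Mir302 cluster, of which 2 mature sequences in the RefSeq entries used here share the seed AAGUGCU, had 2 pairs in each list. They had 49 contacts untreated and 35 after IAA. The Mir106b cluster had 3 pairs with 73 contacts untreated and 1 pair with 41 after IAA, and the pair in both lists had 43 and 41. The Mir182 cluster had 2 pairs with 35 contacts untreated and 0 after IAA. Over the whole untreated list, 42.9% of pairs were called after IAA. The Mir17hg, Mir106a and Mir15b clusters, Mir21a and Mir148a had 0 pairs in both lists. The Mir290 cluster bins had 24 pairs with 896 contacts untreated and 25 with 676 after IAA, and the 19 shared ones had 792 and 612. These loci were listed with results of these data known, the number of bins per locus is 1 to 2, and hairpin bins need not hold the transcript's start.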
